A study of Bos taurus with 6 samples.

Results

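CDK inhibitors and D-type cyclins set how readily a cell passes from the first gap phase of the cell cycle into DNA replication. They were followed as 9 genes picked by symbol: the CIP/KIP inhibitors CDKN1A, CDKN1B and CDKN1C, the INK4 inhibitors CDKN2B, CDKN2C and CDKN2D, and the cyclins CCND1, CCND2 and CCND3. All 9 of the 9 listed symbols were found, each on 1 row, among 24616 genes of the deposited table. All 9 had a mean of at least 1 FPKM (fragment counts corrected for gene length and for the total mapped in a library) in each group, and so were among the 11615 genes tested.

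D-type cyclins bind the kinases CDK4 and CDK6, and the complexes phosphorylate the retinoblastoma protein RB1, which frees E2F transcription factors to switch on genes of DNA replication. INK4 proteins bind CDK4 and CDK6 and keep the cyclin away, whereas CIP/KIP proteins bind cyclin-CDK complexes more broadly and are best known for blocking CDK2. In the mouse mammary gland, cyclin D1 is needed for the growth of milk-producing alveoli in pregnancy.

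The RNA came from mammary epithelial cells of cattle (Bos taurus) in culture, with 3 libraries of control cells and 3 of cells given acetate (NaAc, the sodium salt) together with BHBA (beta-hydroxybutyrate, a ketone body). The series calls the treated cells a model of high milk fat, and the comparison asks which transcripts differ with both substrates present. The sources used here give no breed, donor animal, passage, dose or time, and no control with matched sodium is named, so sodium cannot be told apart from acetate and BHBA. Whether replicates are separate cultures is not stated, so a p-value here reflects library-to-library spread that may be technical.

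Summed FPKM differed within a group, at 1134026 in control replicate 1, 816087 to 847971 in the other 2 controls and 787186 to 936152 in treated cells. FPKM holds no read counts, so the depth behind a value is unknown. Keratins typical of the cell type were abundant. KRT18 lay between 961 and 1784 FPKM in all libraries, whereas KRT5, a basal keratin, split by group, at 8960 to 9385 FPKM in control and 6025 to 6827 in treated cells (log2 fold change -0.51 ± 0.20 SE, adjusted p = 0.418, limma). The basal markers did not share that direction, as 3 of the 6 tested were higher and 3 lower. KRT14, also a basal keratin, lay wholly above the controls, at 14.4 to 18.0 and 18.6 to 27.8 FPKM (log2 fold change 0.44 ± 0.19 SE, adjusted p = 0.466, limma). Of 8 luminal markers tested, 7 were lower and 1 higher, or 4 and 4 with quantile normalization. Of other markers, the luminal receptor gene ESR1 was listed at 0 in all 6 libraries and the basal regulator TP63 reached at most 0.88. Of the defining markers of blood and vessel cells, PTPRC reached at most 0.03 and PECAM1 at most 0.06 FPKM. Other markers on those lists were expressed: VWF at 2.52 to 5.82 and AIF1 at 2.25 to 7.93 FPKM, and CD14 at 3.65 to 4.73 in control and 6.19 to 8.03 in treated cells (adjusted p = 0.237, limma). The 8 fibroblast markers summed to 27.9 to 45.1 FPKM in control and 50.9 to 57.1 in treated cells, none of them at 0 throughout. Without THY1, a choice made after seeing the data, the sum of the other 7 overlapped, at 21.5 to 41.1 and 33.2 to 43.0. THY1 itself was at 2.54 to 6.39 FPKM in control and 14.0 to 18.55 in treated cells. DCN (1.46 to 2.39 and 2.75 to 3.65) and LUM (1.44 to 1.69 and 2.29 to 2.79) were also apart and higher (adjusted p = 0.305 and 0.345, limma). Thus 3 of the 7 tested fibroblast markers lay wholly above the controls, beside 13.0% of all genes, and 4 overlapped. The part of these markers in the results was not tested.

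CCND3 had the smallest p of the 9 genes and stood about 1.86-fold higher in cells with acetate and BHBA. CDKN1C and CDKN2B also stood higher, whereas CDKN2C stood lower. CDKN1A, the most abundant of the 9, overlapped between the groups, as did CDKN1B and CDKN2D. None of these differences passed the test over all genes: 0 of the 9 had an adjusted p under 0.05 (limma's moderated test on log2(FPKM + 0.5), 2-sided, Benjamini-Hochberg adjustment over 11615 genes), where 0.474% of all genes tested did. At an unadjusted p under 0.05 there were 6 of 9 (5 higher and 1 lower), against 11.0% of all genes (7.42% higher and 3.62% lower). The 3 treated values lay outside the range of the 3 control values for the same 6 genes, 5 above and 1 below, against 19.7% of all genes tested (13.0% above and 6.69% below). On the log2 scale 7 of 9 genes were above 0, as were 61.9% of all genes. The 9 genes were chosen with earlier results of these data known, and these counts rest on the same values. They are given as a description and are not independent evidence. In bulk RNA, fewer cells holding a transcript and less of it per cell cannot be told apart. The 55 genes called in all were split 40 higher to 15 lower, or 35 to 27 of 62 with quantile normalization.

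**Figure D1:**
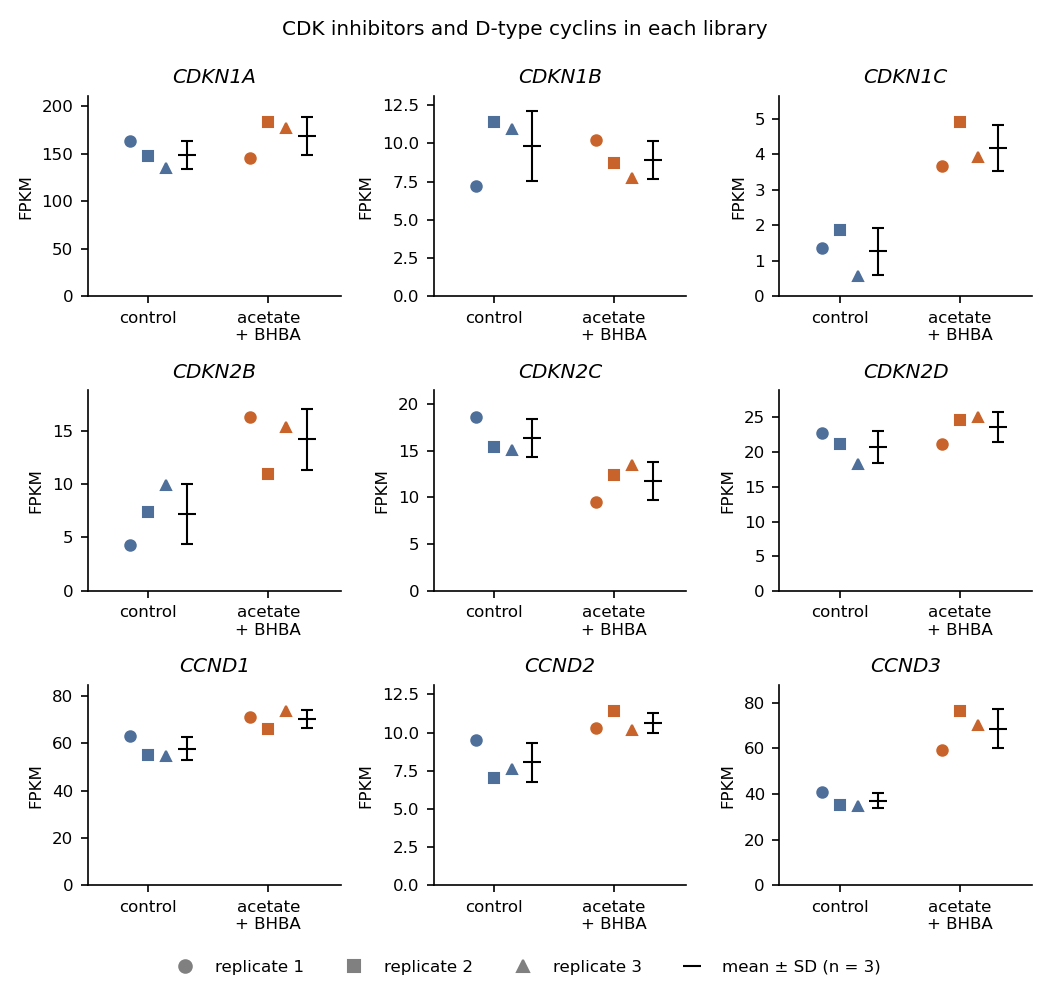
FPKM (linear axis from 0) of each of the 9 genes in the 3 control libraries (blue) and the 3 libraries with acetate and BHBA (orange), with symbols for replicate numbers and the mean ± SD beside each group. The treated points of CCND3 (59.4 to 76.4) lie above all control points (35 to 40.8), while the groups overlap for CDKN1A, CDKN1B and CDKN2D.

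Among the D-type cyclins, CCND3 (ENSBTAG00000010106), a partner of CDK4 and CDK6 that is broadly expressed across tissues, was measured at 40.8, 35.2 and 35 FPKM in control replicates 1, 2 and 3 and at 59.4, 76.4 and 70.3 in treated replicates 1, 2 and 3. Every treated library was above every control library, and the nearest pair were control replicate 1 and treated replicate 1. The means were 37.0 ± 3.29 and 68.7 ± 8.59 FPKM (SD, n = 3 per group), a log2 fold change of 0.88 ± 0.14 SE with a 95% interval of 0.54 to 1.21 and an adjusted p = 0.0685 (limma). By p it ranked 94 among all genes tested, where 55 passed. It passed in 3 of 16 alternatives, over a range of adjusted p from 0.00109 to 0.691. These were the fit without control replicate 1 (adjusted p = 0.0303), where 1.76% of all genes passed, quantile normalization (0.0474), where 0.534% passed, and a fit with each library's summed FPKM as a covariate (0.00109), where 18.0% passed and 6 of the 9 genes with them.

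CCND1 (ENSBTAG00000017514), the D-type cyclin best known from mammary epithelium, was the most abundant of the family in control cells. It stood at 63.2, 55.25 and 54.6 FPKM in the controls and at 71.1, 66.0 and 73.6 in treated cells. The groups were apart by less than 3 FPKM, between control replicate 1 and treated replicate 2. The log2 fold change was 0.28 ± 0.12 SE (95% interval 0.01 to 0.56, adjusted p = 0.437, limma). CCND2 (ENSBTAG00000016649), the third D-type cyclin, was the scarcest, at 9.50, 7.06 and 7.62 FPKM in control and 10.3, 11.4 and 10.2 in treated libraries. Again the treated values lay just above the highest control, and the log2 fold change was 0.39 ± 0.16 SE (95% interval 0.01 to 0.77, adjusted p = 0.443, limma).

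Summed over the 3 genes, D-type cyclin FPKM was 114, 97.5 and 97.25 in the controls and 141, 154 and 154 in treated libraries. The make-up of that sum, which does not depend on how a library is scaled, was nearly constant in control cells. CCND3 made up 35.9%, 36.1% and 36.0% of it there, and 42.2%, 49.7% and 45.6% in treated replicates 1, 2 and 3. The share of CCND1 was 56.2% ± 0.48 in control and 47.1% ± 3.83 in treated cells (SD, n = 3), with no overlap, while that of CCND2 overlapped, at 7.81% ± 0.57 and 7.12% ± 0.45. The ratio of CCND3 to CCND1 was 0.646, 0.638 and 0.641 in control libraries, a spread of under 0.01, and 0.836, 1.16 and 0.954 in treated libraries. Only in treated replicate 2 did CCND3 exceed CCND1 among the 6 libraries. These shares and ratios carry no p-value, and 3 values against 3 could not give an exact permutation p below 0.1.

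**Figure D2:**
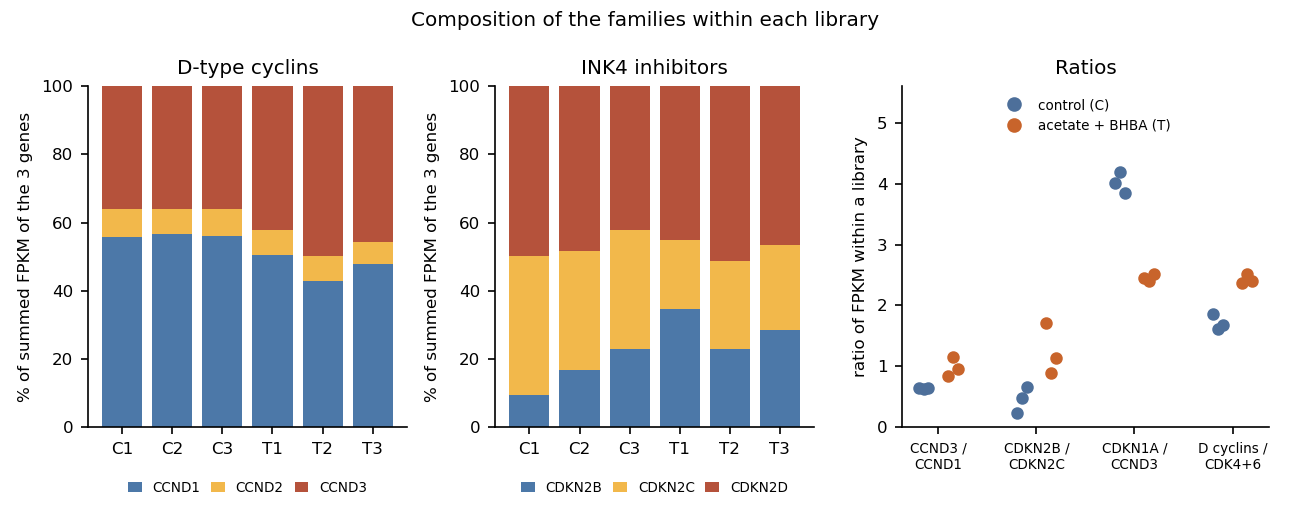
Left and centre, the percentage of the summed FPKM of the D-type cyclins and of the INK4 inhibitors that each gene made up in control libraries (C1 to C3) and treated libraries (T1 to T3); right, ratios of FPKM within each library on a linear axis. CCND3 fills 36.0% of the D-type cyclin bar on average in control and 45.8% in treated cells, and the control points of CCND3 over CCND1 lie on top of each other at 0.641 on average.

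The CIP/KIP inhibitors were led in abundance by CDKN1A (p21, an inhibitor of CDK2 induced by stress, ENSBTAG00000008353), which made up 91.3% to 95.03% of the summed FPKM of the 3 genes in every library. It was measured at 164, 148 and 135 FPKM in control and at 145, 183 and 177 in treated libraries. Treated replicate 1 lay within the control range. The log2 fold change was 0.18 ± 0.14 SE with a 95% interval of -0.17 to 0.52 (adjusted p = 0.802, limma). CDKN1B (p27, ENSBTAG00000018254), which restrains CDK2 in resting cells, stood at 7.21, 11.4 and 10.95 FPKM in control and at 10.2, 8.73 and 7.74 in treated libraries. The treated values all lay within the control range, with a log2 fold change of -0.12 ± 0.22 SE (95% interval -0.64 to 0.40, adjusted p = 0.929, limma). Leaving out 1 library moved that of CDKN1B between -0.32 and -0.01, the ends being without control replicates 1 and 2. For CDKN1A the same range was 0.11 to 0.28, the ends being without control replicate 3 or treated replicate 2 and without treated replicate 1.

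Among genes whose groups overlapped, the order of values went with the summed FPKM of the libraries. The 3 libraries with the largest sums (control replicate 1 and treated replicates 2 and 3) held the 3 highest values of CDKN1A and of CDKN2D, and the 3 lowest of CDKN1B. Genes whose groups were apart were not free of this. Control replicate 1, with the largest sum, was the highest control for 6 of the 9 genes, CCND1, CCND2, CCND3 and CDKN2C among them. It was the lowest for 2, CDKN2B among them. Control replicate 1 had the largest sum but the lowest median FPKM of tested genes, 11.32, beside 13.47 to 14.44 in the other libraries. A rescaling moves all genes of a library the same way, whereas the orders of CDKN1A and CDKN1B ran in opposite directions. The part in these values of library differences that go with the sum was not tested beyond the alternatives.

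CDKN1C (p57, ENSBTAG00000031184), an inhibitor expressed from the maternal allele in human and mouse, was the scarcest of the 9 genes and had the largest log2 fold change among them. It was measured at 1.35, 1.88 and 0.58 FPKM in control and at 3.67, 4.91 and 3.94 in treated libraries. The lowest treated value was nearly double the highest control value. The means were 1.27 ± 0.65 and 4.17 ± 0.65 FPKM (SD, n = 3), a ratio of 3.29, and the log2 fold change, which the added 0.5 FPKM holds down at this level, was 1.47 ± 0.33 SE (95% interval 0.67 to 2.26, adjusted p = 0.154, limma). With 0.1 FPKM added in place of 0.5 it was 1.76, and with 1 FPKM 1.22. Within its family CDKN1C made up 0.784%, 1.17% and 0.397% in control and 2.30%, 2.49% and 2.09% in treated libraries, again without overlap.

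Next to CDKN1C in the order of protein-coding genes of the RefSeq annotation (assembly ARS-UCD2.0, used for order only) lie SLC22A18 and then PHLDA2, both imprinted in human and mouse like CDKN1C. PHLDA2 stood at 2.01, 2.25 and 0.69 FPKM in control and 2.18, 4.21 and 3.44 in treated libraries. SLC22A18 stood at 4.96, 3.14 and 3.00 and at 1.54, 3.06 and 3.55. Both overlapped between groups, with log2 fold changes of 0.87 ± 0.40 SE (adjusted p = 0.518) and -0.41 ± 0.33 SE (adjusted p = 0.802, limma).

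The INK4 inhibitors did not share a direction. CDKN2B (p15, known in human cells as a target induced by TGF-beta, ENSBTAG00000016412) stood at 4.27, 7.34 and 9.87 FPKM in control and at 16.3, 10.95 and 15.3 in treated libraries. Treated replicate 2 exceeded control replicate 3 by little, and the controls spread over more than a factor of 2. The log2 fold change was 0.99 ± 0.31 SE (95% interval 0.23 to 1.75, adjusted p = 0.304, limma), and 0.68 without control replicate 1, the library with the lowest CDKN2B. CDKN2C (p18, ENSBTAG00000011059), an INK4 inhibitor that binds CDK6 and CDK4, was the 1 gene of the 9 lying wholly below the controls. It was measured at 18.6, 15.3 and 15.0 FPKM in control and at 9.54, 12.4 and 13.5 in treated libraries, a log2 fold change of -0.46 ± 0.18 SE (95% interval -0.88 to -0.04, adjusted p = 0.397, limma). CDKN2D (p19, ENSBTAG00000010731), the most abundant of these INK4 genes, was at 22.8, 21.2 and 18.3 FPKM in control and 21.2, 24.6 and 25.1 in treated libraries. The groups overlapped, with a log2 fold change of 0.19 ± 0.14 SE (95% interval -0.15 to 0.52, adjusted p = 0.782, limma), or 0.10 without control replicate 3.

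Set against each other within a library, CDKN2B was below CDKN2C in each control, at ratios of 0.229, 0.478 and 0.656. In treated replicates 1, 2 and 3 the ratios were 1.71, 0.886 and 1.14, so that the order turned in 2 of the 3 treated libraries. CDKN2C made up 36.9% ± 3.40 of the INK4 sum in control and 23.7% ± 2.98 in treated cells (SD, n = 3), without overlap. The share of CDKN2B was 16.3% ± 6.77 and 28.6% ± 5.92, with treated replicate 2 and control replicate 3 level at 22.8% and 22.9%. Within each group, the larger a library's summed FPKM, the lower were that share and the ratio to CDKN2C, and the higher the CDKN2C share. The part of such library differences in these values was not tested. CDKN2D kept 46.8% ± 4.01 and 47.7% ± 3.28. The sum of the 3 INK4 genes was 45.7, 43.9 and 43.2 FPKM in control and 47.1, 47.9 and 53.9 in treated libraries.

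CDKN2A, which lies next to CDKN2B in the RefSeq gene order and encodes both p16 and ARF in human, stood at 22.6, 14.1 and 12.85 FPKM in control and 15.35, 20.3 and 24.8 in treated libraries. Its groups overlapped (log2 fold change 0.30 ± 0.27 SE, adjusted p = 0.839, limma). In human, CDKN2A and CDKN2B are close in sequence and an antisense RNA overlaps CDKN2B. How the counting treated shared reads or strand is not known from the sources used here, so reads of these genes may not be fully separated.

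**Figure D3:**
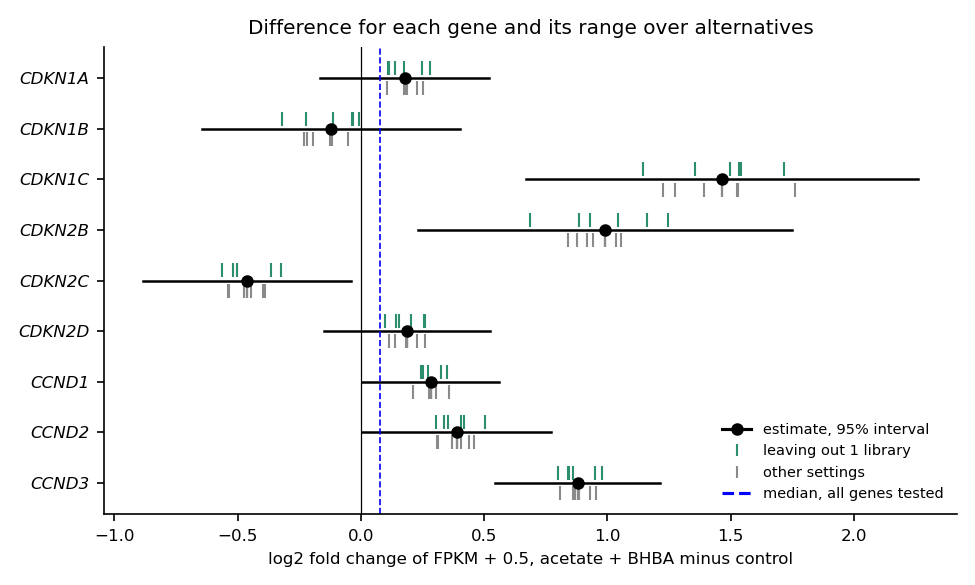
Log2 fold change of FPKM + 0.5, treated minus control, for each of the 9 genes (black point) with its 95% interval from limma, the values on leaving out 1 library (green) and under other settings (grey), and the median of all genes tested (dashed, 0.08). No gene changed side of 0 in any of the 16 alternatives, and intervals of CDKN1A, CDKN1B and CDKN2D span 0.

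Ordered by mean FPKM, control cells ran CDKN1A, CCND1, CCND3, CDKN2D, CDKN2C, CDKN1B, CCND2, CDKN2B and CDKN1C. Neighbours whose ranges over libraries overlapped were CDKN2D with CDKN2C, CDKN1B with CCND2 and CCND2 with CDKN2B. In treated cells the order was CDKN1A, CCND1, CCND3, CDKN2D, CDKN2B, CDKN2C, CCND2, CDKN1B and CDKN1C. There CCND1 overlapped with CCND3, and each of CDKN2B, CDKN2C and CCND2 with the next. CDKN1A exceeded 93.1% of all tested genes in control level and CDKN1C exceeded 3.27%, which became 94.1% and 19.3% in treated cells. CCND3 stood above 75.3% of genes in control and 85.8% in treated cells. The spread between replicates, as SD over mean, ran from 8.29% (CCND1) to 51.5% (CDKN1C) in control and from 5.52% (CCND1) to 20.1% (CDKN2B) in treated cells.

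Relative to the kinases they share, D-type cyclins stood higher in treated cells. CDK4, the main kinase partner by level, was at 52.97, 50.7 and 49.2 FPKM in control and 46.2, 52.0 and 56.6 in treated libraries, and CDK6 at 7.81, 9.74 and 8.81 and at 13.25, 9.14 and 7.74. Both overlapped, with log2 fold changes of 0.01 ± 0.12 and 0.15 ± 0.22 SE (adjusted p = 0.985 and 0.911, limma). Summed D-type cyclin FPKM over that of CDK4 plus CDK6 was 1.87, 1.61 and 1.68 in control and 2.37, 2.52 and 2.39 in treated libraries. The like ratio of the INK4 sum was 0.752, 0.726 and 0.744 in control and 0.792, 0.784 and 0.837 in treated libraries. With CDKN2A, also an INK4 gene, added to the sum after seeing the data, the groups overlapped, at 1.12, 0.959 and 0.966 in control and 1.05, 1.12 and 1.22 in treated libraries. CDKN1A over CCND3 was 4.01, 4.20 and 3.85 in control and 2.45, 2.40 and 2.52 in treated libraries, each within a narrow band and far from the other group. Against CCND1, CDKN1A gave overlapping ratios of 2.46 to 2.68 and 2.05 to 2.78.

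None of the 84 tested genes on 7 lists covering the rest of this pathway passed the threshold (limma, adjusted p under 0.05), and 10 (11.9%, beside 11.0% of all genes) had an unadjusted p under 0.05, 3 higher and 7 lower. Proliferation markers were mostly on the lower side, 14 of 17, where 61.9% of all genes were on the higher side, with a median log2 fold change of -0.20 beside 0.08 for all genes tested, and 8 of the 17 lay wholly below the controls, beside 6.69% of all genes. The mitotic kinase gene PLK1 stood at 36.7, 36.4 and 35.02 FPKM in control and 24.8, 28.7 and 26.1 in treated libraries (log2 fold change -0.44 ± 0.11 SE, adjusted p = 0.198). BIRC5, survivin, had a log2 fold change of -0.32 ± 0.10 SE (adjusted p = 0.316). These were the 2 with the smallest p, and 9 of the 17 overlapped between groups. MKI67 was at 9.88, 29.7 and 29.7 FPKM in control and 31.2, 17.5 and 17.0 in treated libraries (log2 fold change 0.03 ± 0.47 SE, adjusted p = 0.992, limma). It was on the higher side with MCM6 and RRM1. This list too was chosen with earlier results of these data known. Over the scaling alternatives between 14 and 16 of the 17 were on the lower side. Without control replicate 1 it was 17, and without control replicate 3 it was 12.

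Of the later cyclins, CDKs and their phosphatases, 8 of 14 were on the lower side (median -0.12), or 7 after rescaling to equal sums. Without control replicate 1 it was 12 (median -0.21), and without control replicate 3 the median was -0.06. The median of all genes tested was -0.003 and 0.12 in those fits, in that order. CDC25C, which activates CDK1 at mitosis, was at 5.71, 6.97 and 6.64 FPKM in control and at 4.03, 3.27 and 3.5 in treated libraries, without overlap (log2 fold change -0.76 ± 0.17 SE, adjusted p = 0.145). CDC25B, its relative, had a log2 fold change of -0.36 ± 0.15 SE (adjusted p = 0.469). CDKN3, a phosphatase of CDK2 despite its name, stood at 11.2, 10.35 and 10.8 FPKM in control and at 6.21, 6.30 and 7.58 in treated libraries (log2 fold change -0.65 ± 0.14 SE, adjusted p = 0.143). It was the 1 gene of the 4 other inhibitor-named genes to be apart between groups, beside 19.7% of all genes, as CDKN2A, CDKN2AIP and CDKN2AIPNL overlapped.

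For the next 3 lists the background was 61.9% of all genes tested on the higher side, with a median of 0.08. That median of all genes moved too, to 0.002 with quantile normalization and -0.003 without control replicate 1. Without treated replicate 1 it was 0.06, and without treated replicate 2 it was 0.08. Counts under the alternatives are given without such a background. Kinases and pocket proteins were on the higher side in 6 of 6 cases (median 0.25), or 5 with quantile normalization, with median scaling and in all fits without 1 library but that without treated replicate 2. The median was 0.10 without control replicate 1 and 0.13 without treated replicate 1. The smallest p was that of CDC37, a chaperone partner of CDK4 (log2 fold change 0.35 ± 0.12 SE, adjusted p = 0.335). RB1 itself stood at 2.33, 5.48 and 5.63 FPKM in control and at 8.94, 4.12 and 5.99 in treated libraries, which overlap (0.48 ± 0.40 SE, adjusted p = 0.812). Of the E2F and DP factors 5 of 9 were on the higher side (median 0.10, or 0.04 without treated replicate 2 and 0.06 without control replicate 1), with TFDP2 at 0.38 ± 0.15 SE (adjusted p = 0.411) and E2F4 at 0.23 ± 0.11 SE (adjusted p = 0.532). Among genes that control turnover of these proteins, USP28, a deubiquitinase, had 0.34 ± 0.20 SE (adjusted p = 0.669), and FBXO31, a ligase subunit that targets cyclin D1, 0.20 ± 0.15 SE (adjusted p = 0.766). In that list 7 of 11 were on the higher side (median 0.11), or 5 with quantile normalization and 4 without control replicate 1 (median -0.13), and 6 without treated replicate 1 (0.07).

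Of 23 upstream regulators 14 were on the higher side (median 0.04), close to the 61.9% of all genes tested (median 0.08). It was 11 with quantile normalization, 7 without control replicate 1 (median -0.10) and 10 without treated replicate 1 (-0.02). Without 1 of the other 4 libraries the median lay between 0.10 and 0.20, beside 0.08 to 0.12 for all genes tested. For all genes it was -0.003 without control replicate 1 and 0.06 without treated replicate 1. KLF4, which activates CDKN1A in human cells, was at 5.71, 6.71 and 6.75 FPKM in control and 9.47, 10.01 and 8.30 in treated libraries, apart from each other (0.50 ± 0.15 SE, adjusted p = 0.272). MXI1, a MYC antagonist, had 0.52 ± 0.23 SE (adjusted p = 0.506).

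**Figure D4:**
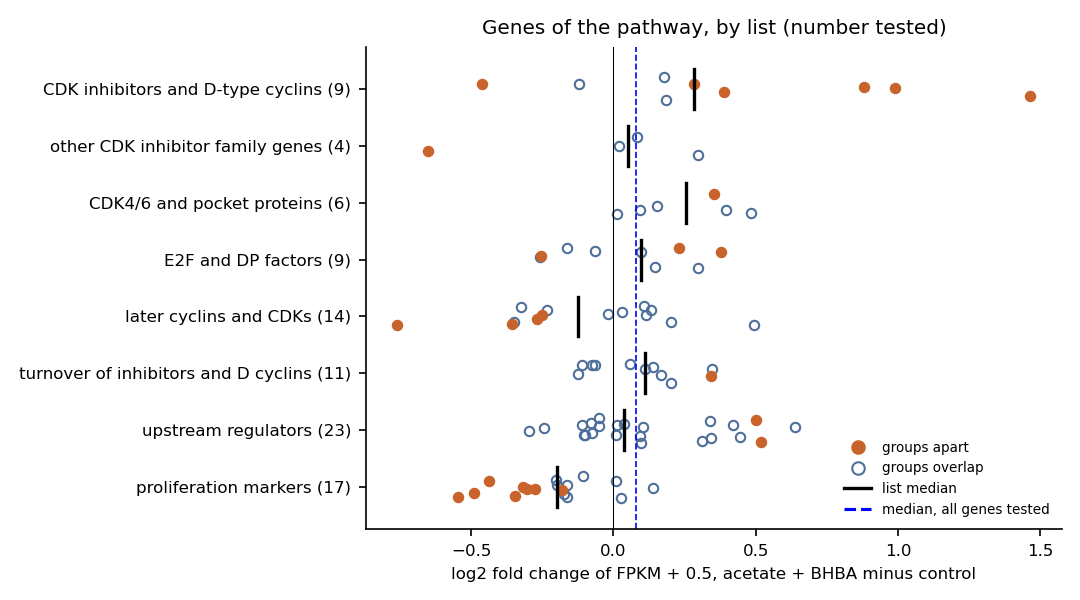
Log2 fold change of FPKM + 0.5, treated minus control, of each tested gene of the 9 CDK inhibitors and D-type cyclins and of 7 pathway lists (number tested in brackets), filled where the groups do not overlap, with the list median (bar) and the median of all genes tested (dashed). Proliferation markers lie mostly to the left (median -0.20) and the CDK inhibitors and D-type cyclins mostly to the right (median 0.28).

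Genes whose log2(FPKM + 0.5) ran most like that of a gene described here were found by Pearson's r over the 6 libraries, which share the same scaling, and are given as a description. For CCND3 they were NEIL2, a DNA glycosylase, SCNN1D, a sodium channel subunit, and MAGED4B (r = 0.998, 0.998 and 0.996). NEIL2 was at 8.12, 6.91 and 7.2 FPKM in control and 13.3, 17.35 and 15.6 in treated libraries. At the looser cut of r of at least 0.95 there were 217 of 10283 named genes for CCND3, 81 for CDKN1C and 109 for CDKN2B. The genes named were thus not the only close ones. The nearest to CDKN1C were PLA2G3, FBXL16 and TRAPPC9 (r = 0.995, 0.994 and 0.991), and to CDKN2B PCCA, ARHGEF3 and ECHDC3 (r = 0.994, 0.993 and 0.992).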

How the data were processed

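RNA had an integrity number above 8 and was selected for poly(A), per the labels' protocols. The authors deposited FPKM values, rounded to 2 decimals, 1 column per library. The submitters' processing notes name the build ARS-UCD1.2 and DESeq2 with no role. Aligner, counting, annotation and strand handling are unknown from the sources used here. The smallest value above 0 was 0.01, the rounding step, so reads could not be recovered and no count model was fitted. Columns were matched to samples by name, and NaAc columns were read as treated because no control title has that word. Symbols came from the table, except 124 from RefSeq protein accessions and 2 (CDK4 and BMI1) from descriptions.

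Genes averaging 1 FPKM or more were taken as log2(FPKM + 0.5) and compared, treated minus control, with limma 3.58.1 in R 4.3.3 (moderated test with variance trend, no covariate, threshold 0.05). A check on simulated data came first. It drew independent noise for each gene, so it held no difference shared by the genes of a library and does not bear on such differences. Intervals are 95% intervals from the moderated SE. Of 132 genes on 13 further lists (7 of the pathway, 6 of cell type markers), 125 were found and 108 tested, and 1 further list is not reported here. The text names from each pathway list the 2 genes with the smallest p, and the 3 genes nearest in pattern to the gene with the smallest p in each family. Neighbouring genes, ratios within a library and other genes named were chosen after values were seen. The 9 genes and all lists were chosen with earlier results of these data known. The 16 alternatives are given with their effect at the end. Python 3.11.15 with pandas 2.3.3 and matplotlib 3.10.9 made tables and plots. No sequences were used here, and coordinates of the RefSeq table (assembly ARS-UCD2.0) served only to order neighbouring genes.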

Additional observations from a re-analysis of the deposited data

How the results depend on the processing

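All 9 genes kept their direction in every one of the 16 alternatives that tested them (15 for CDKN1C, which lay under a mean of 5 FPKM). None of the 9 passed in the main comparison, against 1 (CCND3, log2 fold change 0.86) with quantile normalization, 1 (CCND3, 0.95) without control replicate 1, and 6 with each library's summed FPKM as a covariate, where 18.0% of all genes passed. Those 6 were CCND3 at 0.93, CDKN1C at 1.52, CDKN2B at 0.84, CDKN2C at -0.40, CCND1 at 0.31 and CCND2 at 0.44. The covariate also gave 15 calls among the 84 tested genes of the pathway lists, against 0. Leaving out 1 library gave 0 to 1 of the 9 called, with CCND3 between 0.80 and 0.98. Of all genes tested 55 passed, against 23 after rescaling to equal sums, 33 with a mean of at least 5 FPKM, 2089 with the covariate and 0 to 205 on leaving out 1 library (205 without control replicate 1, 1 without control replicate 3). Fits without 1 library have fewer residual degrees of freedom, and the other causes were not tested. CDKN1B moved by over 1.5 times in 9 alternatives, CDKN1A in 4 and CDKN2D in 2. With the replicate block 0 genes passed, none of the 9 among them, and 584 had an unadjusted p under 0.05 (limma). Deviations of same-numbered libraries correlated at -0.73, -0.37 and -0.38, and those of differently numbered libraries at -0.53 to 0.67. Taken over all genes, such values cannot show a smaller effect shared by same-numbered libraries, so pairing by replicate number was not settled. Depth is unknown, so low values such as those of CDKN1C rest on replicate spread, moderated over all genes tested, and not on read counts.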
